A study of Mus musculus with 2 samples.

Results

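Imprinted genes are transcribed mainly from the copy inherited from 1 parent. A list of 32 mouse imprinted genes was described in poly(A) RNA from the testis, each found by its Entrez gene ID among the 44002 rows of the deposited table. All 32 had a row, 29 of them with values and 3 (Snrpn, Magel2 and Rtl1) without. The list holds 11 genes expressed from the maternal copy, 20 from the paternal copy, and Gnas, whose transcripts differ in the copy they come from. These classes were taken from general knowledge of mouse imprinting and were not measured. The series compared testis tissue of the inbred BALB/c strain, taken on postnatal day 45 in adolescence, between a control group and a group exposed to bisphenol A (BPA), used in making plastics and able to act on estrogen receptors. Each group is 1 library made from a mixture of 3 samples, and how much BPA was given, by which route and for how long remains not given in the sources used here. With 1 library a group no spread among animals could be read, no difference below has a replicate check, and no test was made between the groups.

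Imprinting is set in the germ line. Primordial germ cells erase the methylation marks at imprinting control regions, and male germ cells then acquire the paternal pattern, while the somatic cells of the testis keep the marks inherited from both parents. Many imprinted genes act on growth: several paternally expressed genes promote it, several maternally expressed genes restrain it, and long noncoding RNAs of some clusters silence their neighbours on the same chromosome. A testis library sums germ cells and somatic cells and both parental copies, so neither the copy of origin nor the cell of origin of a transcript was read here. In such bulk RNA, fewer cells of a type and less RNA per cell cannot be told apart.

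Values are CPM, reads per gene scaled to the same total in each library. By their step size the listed values stand for 45162887 reads of BPA testis and 41711330 of control testis, so that 1 read is 0.0220 CPM and 0.0239 CPM. Markers of the labelled tissue were abundant: the 10 spermatid genes summed to 19924 CPM with BPA and 18776 CPM in the control, and the 10 spermatocyte genes to 1860 and 1805 CPM. Where a pair of values carries no label, the BPA library comes first. Ratios are BPA over control, with an exact 95% binomial interval of the reads that covers counting error only.

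Of the imprinted genes with at least 1 CPM in a library, all but the noncoding RNA Meg3, which was lower in the BPA library, lay within 2-fold. A gene entered this count when its higher library had at least 1 CPM, and was called higher or lower at 2-fold or more on the log2 scale with 0.1 CPM added. Of the 32 genes, 22 passed that floor, 7 had reads in both libraries below it, and 3 had no value. Among the 22, 0 were higher, 1 was lower and 21 lay within 2-fold. Over all 19389 genes at the floor, 1.32% were higher and 1.95% lower, so that 1 lower gene of 22 is close to the background. None of the 32 is among the 28 genes that the authors' deposited table calls. Together with the 7 low genes they summed to 600.5 CPM with BPA and 583.9 CPM in the control.

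**Figure D1:**
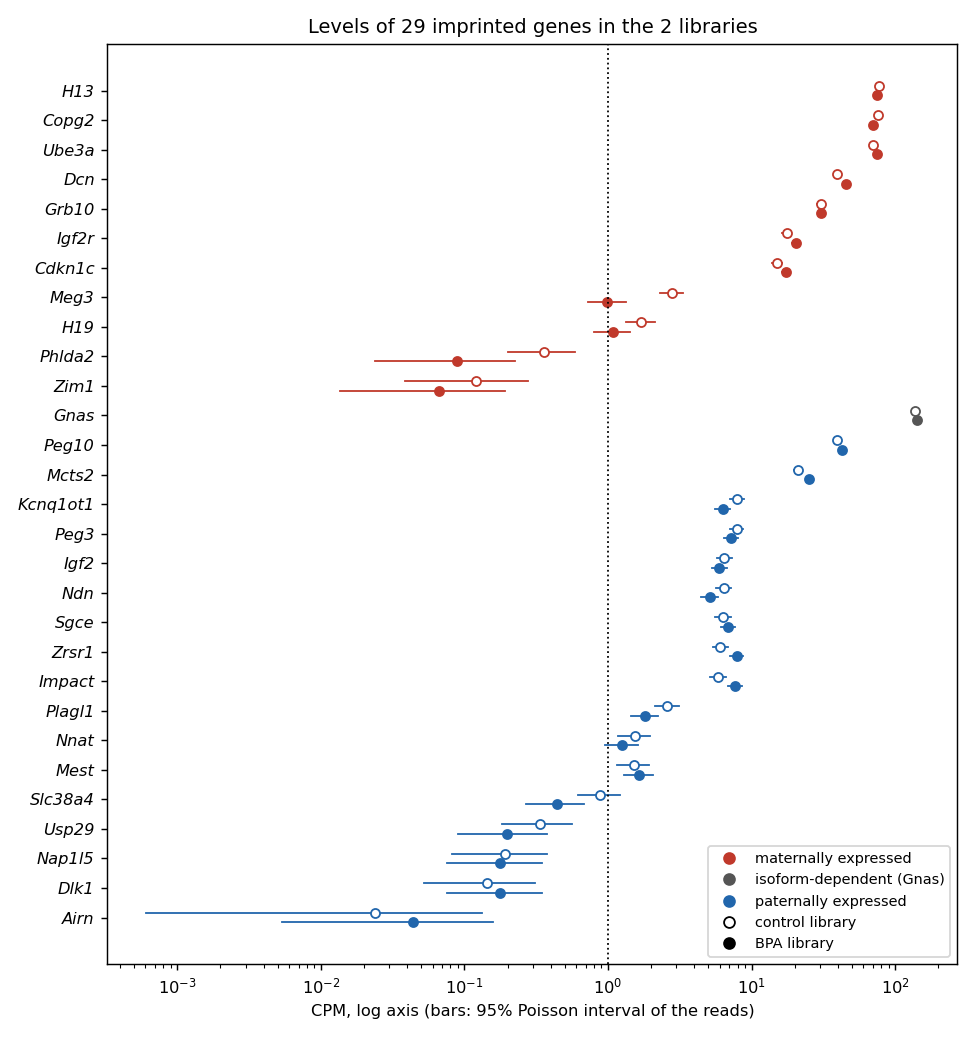
Levels of the 29 imprinted genes with values, in CPM on a log axis, with open circles for the control library and filled circles for the BPA library, and bars for the 95% Poisson interval of the reads in each library. The dotted line marks 1 CPM. Genes are grouped by class and colour, with maternally expressed genes at the top, Gnas below them and paternally expressed genes at the bottom. Within a class they are ordered by control CPM. Levels range from Gnas, at 137 CPM in the control and 143 CPM with BPA, to Airn, with 1 read in the control and 2 with BPA. Open and filled circles nearly coincide for most genes above 10 CPM.

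The maternally and the paternally expressed genes each lay about equally on both sides of even. The 9 maternally expressed genes that passed the floor had a median log2 ratio of 0.01, with 5 above 0 and 4 below, and ran from -1.40 to 0.21. The 12 paternally expressed genes that passed it had a median of 0.00, with 6 above 0 and 6 below, and ran from -0.49 to 0.38. All 22 together had a median of 0.03, beside 0.00 for all genes at the floor. The class medians depend on which genes enter: the maternal one was -0.61 without Dcn, H13, Copg2, Ube3a, Igf2r and Grb10, and the paternal one was 0.12 when the floor was 4 CPM and -0.12 when it was 0.2 CPM. By summed CPM the maternally expressed genes stood at 336.7 with BPA and 332.1 in the control, and the paternally expressed genes at 121.0 and 114.7. No gene outside Meg3 left the central 95% of log2 ratios of all genes of like level, which spans -1.07 to 0.91 for genes with a mean from 1 to 4 CPM, -0.66 to 0.65 from 4 to 10 CPM, -0.39 to 0.39 from 10 to 100 CPM and -0.19 to 0.20 above.

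**Figure D2:**
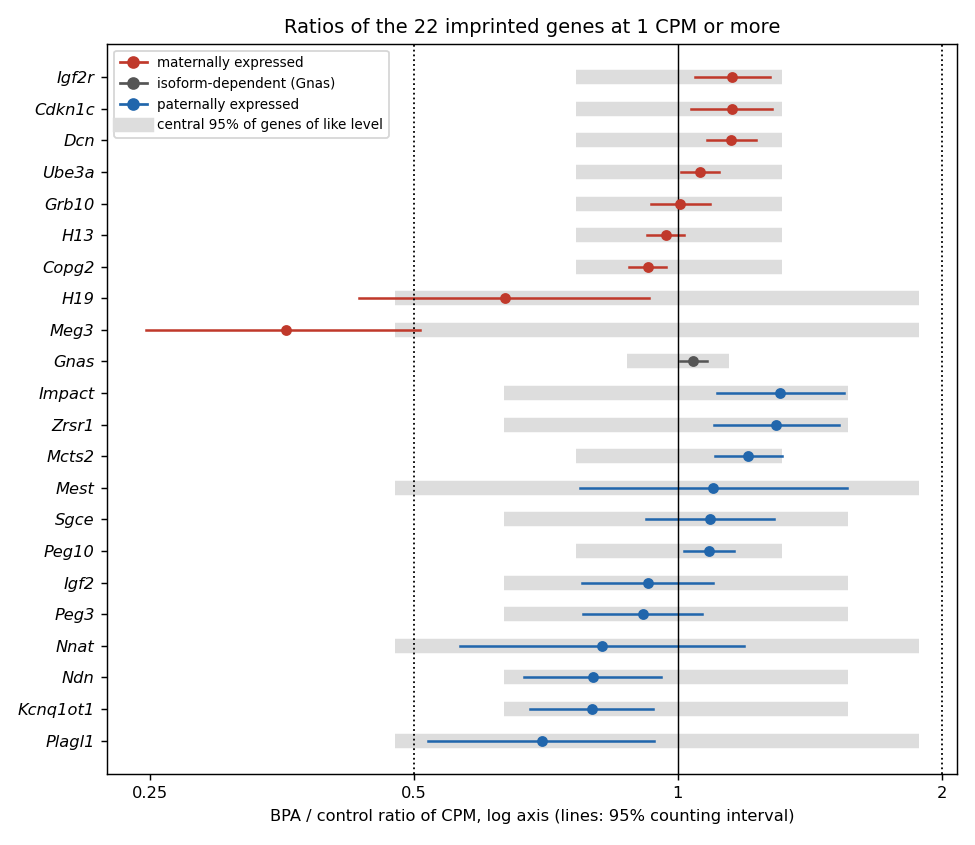
BPA over control ratio of CPM for the 22 imprinted genes at the floor, on a log axis, with lines for the 95% counting interval, dotted lines at 2-fold, and grey bars for the central 95% of all genes of like mean level (on values with 0.1 CPM added). Meg3 alone lies beyond its grey bar and beyond the 2-fold line; the intervals of well-read genes such as Gnas and H13 are narrow and those of H19, Mest and Nnat wide.

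Of the maternally expressed noncoding RNAs, Meg3 belongs to the Dlk1 domain and is made as a long polyadenylated transcript. Meg3 stood at 0.992 CPM (45 reads) with BPA and 2.77 CPM (116 reads) in the control. That is 2.80-fold lower, with an interval of 1.97-fold to 4.04-fold. The control library alone carried Meg3 past the floor, and the BPA value is written as 0 in the authors' deposited table and was filled from the log2 fold change given there, -1.48. The call rests on the small value added to each level: with 1 CPM added in place of 0.1 CPM, the log2 ratio was -0.92 and short of 2-fold. H19, an RNA that shares enhancers with Igf2, stood at 1.08 CPM (49 reads) with BPA and 1.70 CPM (71 reads) in the control, 1.57-fold lower (1.08 to 2.31). Both RNAs were thus lower in the BPA library, H19 by less than the limit of 2-fold and within the range of genes of like level.

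The 250 bases before the start of Mcts2 and before the first of the 2 listed starts of Meg3 are shown. Mcts2 is the highest member per annotated exon length, and Meg3 the 1 member at the floor that is beyond 2-fold. These stretches were chosen because both hold the hexamer TGCCGC, the letters that ZFP57 recognises when methylated to maintain imprints. Capitals mark the hexamer or its reverse complement. Sequences are from the RefSeq promoter table of GRCm38.p6, plus strand, at chr2:152686898-152687147 for Mcts2 and chr12:109540746-109540995 for Meg3.
Mcts2: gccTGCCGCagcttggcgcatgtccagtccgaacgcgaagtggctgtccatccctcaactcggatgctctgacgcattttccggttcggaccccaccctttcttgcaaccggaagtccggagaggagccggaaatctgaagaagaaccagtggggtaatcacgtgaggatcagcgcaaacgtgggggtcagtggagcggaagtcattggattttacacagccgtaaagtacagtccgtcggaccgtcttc
Meg3: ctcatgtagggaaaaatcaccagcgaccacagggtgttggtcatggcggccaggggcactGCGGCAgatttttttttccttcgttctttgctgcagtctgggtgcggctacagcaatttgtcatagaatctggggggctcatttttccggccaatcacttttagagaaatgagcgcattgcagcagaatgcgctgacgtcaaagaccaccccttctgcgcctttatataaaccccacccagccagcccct
These stretches hold 20 and 10 CpG dinucleotides. The window before the other Meg3 start, at chr12:109545148-109545397, holds 0 CpG and 0 matches. The table gave 40 start windows for 25 of the 32 genes, with a median of 10 CpG per 250 bases, 18.5 over the 10 windows of maternally expressed genes and 7 over the 26 of paternally expressed genes, beside 6 over all 32851 windows. Searched on both strands, the hexamer occurred in 8 of the 40 windows (20.0%), belonging to 7 genes, and in 8.68% of all windows. Each window counts singly, also where a gene has several. The matching Mest windows, at 30737800 and 30737803, overlap almost wholly. The hexamer itself holds a CpG, and the shares were not adjusted for CpG content. A match is a description of the letters and not a binding site.

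Of the maternally expressed brakes on growth, the 3 at the floor had ratios from 1.01 to 1.15, and Phlda2, under the floor, was lower in the BPA library. Igf2r, the receptor that takes up and degrades Igf2, stood at 20.4 CPM with BPA and 17.7 CPM in the control, a ratio of 1.15 (1.05 to 1.27). Cdkn1c, an inhibitor of cyclin-dependent kinases, stood at 17.4 and 15.1 CPM, a ratio of 1.15 (1.04 to 1.28). Grb10, an adaptor that dampens insulin receptor signalling, was the gene closest to even, at 30.6 CPM with BPA and 30.4 CPM in the control, a ratio of 1.01 (0.932 to 1.09). Phlda2, which restrains placental growth, was under the floor with 4 reads with BPA and 15 in the control, 4.07-fold lower (1.30 to 16.9). These are few reads, and the interval is correspondingly wide.

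The 4 other well-expressed maternal genes are imprinted only in some tissues or transcripts. Dcn, which encodes the collagen-binding proteoglycan decorin of connective tissue, stood at 45.5 CPM with BPA and 39.5 CPM in the control, a ratio of 1.15 (1.08 to 1.23). H13, the signal peptide peptidase gene, stood at 75.1 and 77.6 CPM, a ratio of 0.969 (0.923 to 1.02). Copg2, a coatomer subunit gene, stood at 70.5 and 76.2 CPM, a ratio of 0.924 (0.880 to 0.971). Ube3a, a ubiquitin ligase gene imprinted in neurons, stood at 75.0 and 70.7 CPM, a ratio of 1.06 (1.01 to 1.12). All 4 ratios thus lay between 0.924 and 1.15. Zim1, a zinc finger gene, had 3 reads with BPA and 5 in the control, a ratio of 0.553 (0.0858 to 2.84).

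Among paternally expressed genes of growth, Igf2, the fetal growth factor, stood at 5.97 CPM with BPA and 6.46 CPM in the control, a ratio of 0.925 (0.778 to 1.10). Peg3, a zinc finger gene, stood at 7.18 and 7.87 CPM (0.913, 0.781 to 1.07), and Mest, a hydrolase-fold gene of mesodermal tissue, at 1.65 and 1.51 CPM (1.10, 0.774 to 1.56). Counting error alone spans even levels in all 3. Plagl1, a zinc finger transcription factor gene, stood at 1.81 CPM (82 reads) with BPA and 2.58 CPM (108 reads) in the control, 1.43-fold lower (1.06 to 1.93). Dlk1, a transmembrane ligand that holds back fat cell formation, was under the floor in both libraries, with 8 reads with BPA and 6 in the control. Slc38a4, an amino acid transporter gene, was also under it, with 20 and 37 reads, 2.01-fold lower (1.14 to 3.65).

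Among the paternally expressed genes, 5 derive from retroelements or from reverse-copied transcripts, and their levels ran from no value to 42.9 CPM. Peg10, which descends from a retrotransposon and acts in the placenta, stood at 42.9 CPM with BPA and 39.6 CPM in the control, a ratio of 1.08 (1.02 to 1.16). Rtl1, of similar descent, had no value in either library. Mcts2, an intronless copy of the translation factor gene Mcts1, stood at 25.3 CPM (1149 reads) and 21.03 CPM (879 reads), a ratio of 1.20 (1.10 to 1.32). Zrsr1, an intronless copy of the splicing factor gene Zrsr2, stood at 7.87 and 6.08 CPM, a ratio of 1.30 (1.10 to 1.53). Nap1l5, an intronless gene of the nucleosome assembly family, had 8 reads in each library. Of the reverse-copied genes, both that were readily measured stood slightly above even in the BPA library.

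In the Prader-Willi region of chromosome 7, Ndn, which encodes the growth suppressor necdin, stood at 5.11 CPM with BPA and 6.39 CPM in the control, 1.25-fold lower (1.04 to 1.496). Snrpn, which encodes a neuronal spliceosome protein, and Magel2, a relative of Ndn, had no value. Snurf, which shares a transcript with Snrpn, had none either, and 34.1% of the annotated exon bases of Snrpn also belong to other genes. The effect of that overlap on the missing value was not tested. Outside that region, Impact on chromosome 18, a regulator of stress-dependent translation, stood at 7.67 and 5.86 CPM. Its ratio of 1.31 (1.11 to 1.55) was the highest among the 22 genes. Sgce, the epsilon-sarcoglycan gene on chromosome 6, stood at 6.90 and 6.34 CPM (1.09, 0.921 to 1.29). Nnat on chromosome 2, which encodes the small membrane protein neuronatin, stood at 1.26 and 1.53 CPM (0.820, 0.564 to 1.19). Usp29, a ubiquitin protease gene of the Peg3 cluster, had 9 reads with BPA and 14 in the control.

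The paternally expressed noncoding RNAs silence genes on the same chromosome. Kcnq1ot1 stood at 6.30 CPM (286 reads) with BPA and 7.89 CPM (330 reads) in the control, 1.25-fold lower (1.07 to 1.47). Airn had 2 reads with BPA and 1 in the control, which leaves its ratio of 1.84 almost unbounded (0.0959 to 109). Gnas, which encodes the stimulatory G protein subunit and is expressed from either parental copy depending on the transcript, was the most abundant of the 32 by CPM. It stood at 143 CPM (6480 reads) and 137 CPM (5730 reads), a ratio of 1.04 (1.01 to 1.08), with nearly the same level in each.

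By counting error alone, 9 of the 22 genes had an interval wholly above 1 and 6 wholly below. Among all genes at the floor these shares were 21.8% and 21.3%, against 40.9% and 27.3% of the imprinted genes. The size of such an interval depends on reads. Of 9 imprinted genes with a mean from 10 to 100 CPM, 6 had an interval above 1 and 1 below, beside 25.2% and 19.8% of all genes in that range. Of 7 with a mean from 4 to 10 CPM the counts were 2 and 2, beside 21.7% and 16.9%. Of 5 with a mean from 1 to 4 CPM, Meg3, H19 and Plagl1 had an interval below 1, and those of Mest and Nnat included 1. The share of all genes in that range was not read. The 6 genes with an interval above 1 and a mean from 10 to 100 CPM were Igf2r, Cdkn1c, Dcn, Ube3a, Peg10 and Mcts2. All had ratios between 1.06 and 1.20. Pooling 3 samples and copying by PCR add variation that these intervals do not hold.

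**Figure D3:**
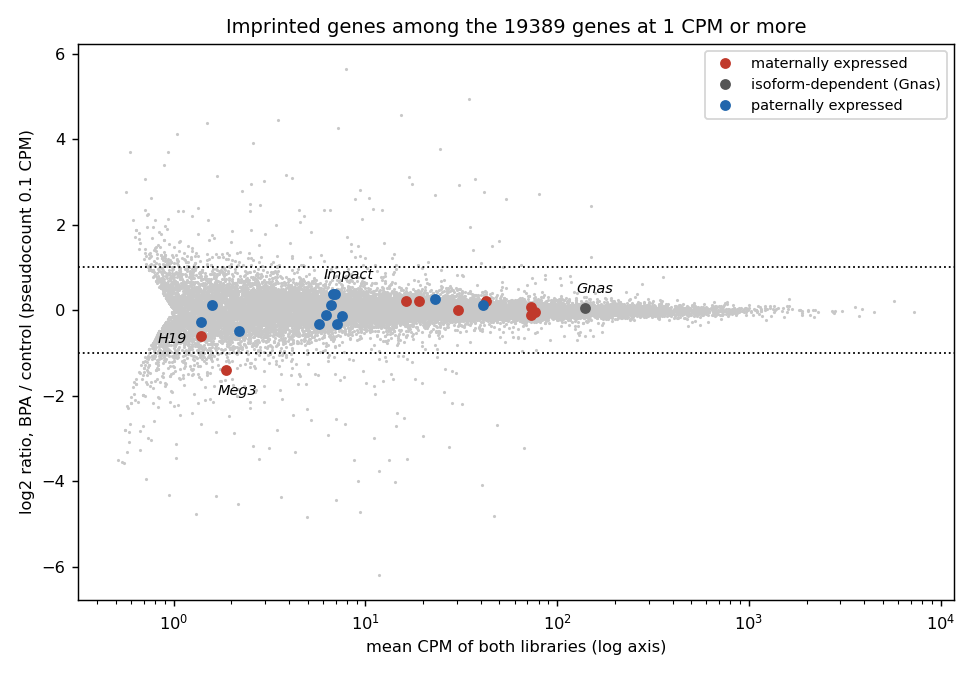
Log2 ratio of BPA over control (0.1 CPM added) against the mean CPM of both libraries on a log axis, for the 19389 genes at the floor in grey and the 22 imprinted genes in colour, with dotted lines at 2-fold. The imprinted genes lie between the dotted lines, except Meg3, which at a log2 ratio of -1.40 lies below the lower one.

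Members and neighbours of the same imprinted cluster were set side by side, with no test of their differences. In the Dlk1 domain of chromosome 12, Meg3 (109540996 to 109571729 in RefSeq, GRCm38) is followed on the same strand by Rian and Mirg, maternally expressed noncoding RNAs of the same cluster. Rian stood at 1.96 CPM with BPA and 1.48 CPM in the control, a ratio of 1.32 (0.946 to 1.86), and Mirg at 1.37 and 1.00 CPM, a ratio of 1.36 (0.905 to 2.06). Neither followed Meg3, whose interval lies wholly below theirs. In the Igf2 cluster of chromosome 7, H19 was 1.57-fold lower and Igf2 lay at a ratio of 0.925. In the neighbouring Kcnq1ot1 cluster the RNA was lower. Of the maternally expressed genes of this cluster that are on the list, Cdkn1c was slightly higher and Phlda2, with few reads, lower. Kcnq1, whose intron holds the RNA, lay at 2.53 and 2.56 CPM. On chromosome 6, Peg10 and Sgce, which start back to back, had nearly equal ratios of 1.08 and 1.09, and Copg2 and Mest, whose exons overlap, had ratios of 0.924 and 1.10. On chromosome 2, Mcts2 lay at 1.20 and its host gene H13 at 0.969, with counting intervals that do not overlap.

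Within 1 Mb of the 32 genes, 4 genes that are not on the list were 2-fold or more apart, all of them predicted genes without a name. The only such gene within 100 kb was Gm32057, 41.3 kb from H13, at 0.331 CPM with BPA and 1.08 CPM in the control. It passed the floor through the control library alone. In all, 8 of the 32 regions held a gene 2-fold apart other than the member itself, 2 of them (those of Dlk1 and Rtl1) through Meg3. The regions held from 2 (Snrpn) to 41 (H13) other genes at the floor. Over all genes at the floor, 1.32% were higher and 1.95% lower, so such neighbours are not particular to these regions.

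Levels can be ranked between genes only per length, so CPM was divided by the exon length annotated in GENCODE. That length joins the exons of all annotated transcripts of a gene, 912 bases for Mcts2 and 11186 for Gnas. It can exceed the length of the transcript that is made, so the order below depends on this divisor. On this scale Mcts2 was highest, at 27.8 CPM per kb with BPA and 23.1 CPM per kb in the control. Copg2 (13.8 and 14.9 CPM per kb) and Gnas (12.8 and 12.3 CPM per kb) followed. Next came Cdkn1c (8.53 and 7.40 CPM per kb), H13 (8.46 and 8.73 CPM per kb), Dcn (7.79 and 6.77 CPM per kb) and Peg10 (6.44 and 5.93 CPM per kb). Neighbours in this order, such as Cdkn1c and H13, exchanged places between libraries and are not told apart. Among other genes of growth, Grb10 stood at 3.36 and 3.34 CPM per kb and Igf2r at 2.19 and 1.90 CPM per kb. Lower still were Igf2 at 1.04 and 1.13 CPM per kb, H19 at 0.439 and 0.690, Mest at 0.419 and 0.382, and Dlk1 at 0.0312 and 0.0254 CPM per kb. The long RNAs Meg3 (0.0548 and 0.153 CPM per kb) and Kcnq1ot1 (0.0677 and 0.0848 CPM per kb) also stood low on this scale, with annotated exons of 18089 and 93092 bases.

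**Figure D4:**
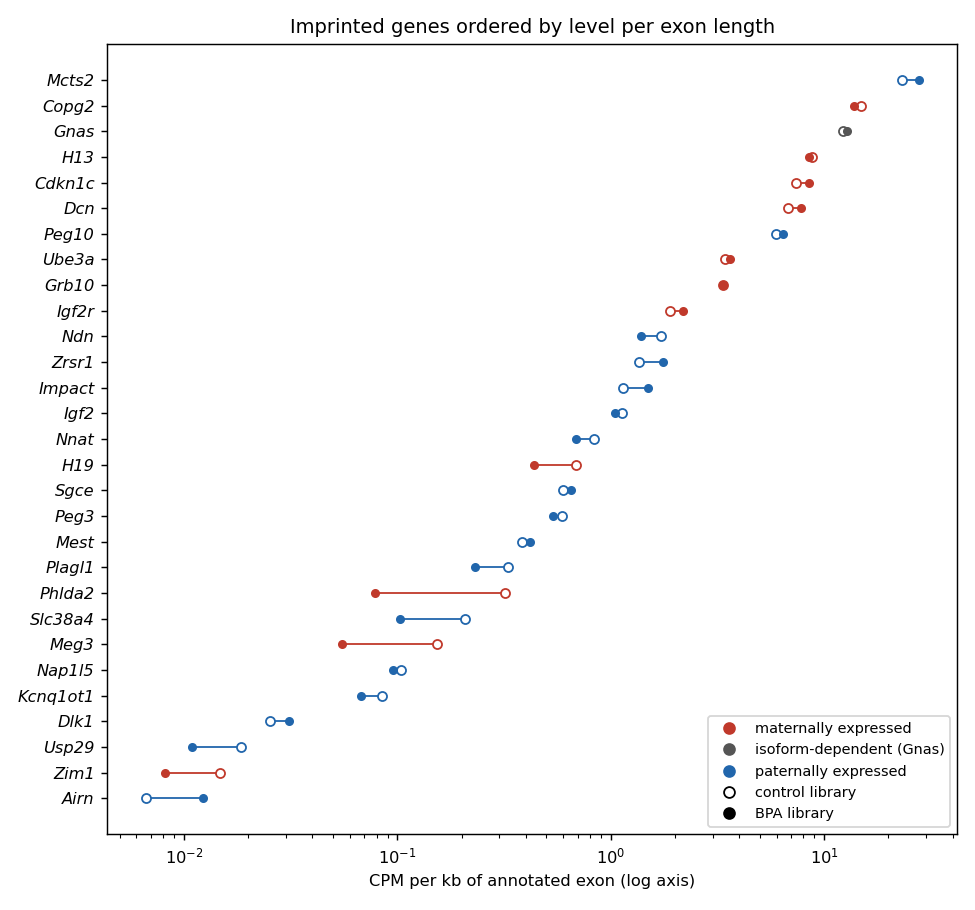
CPM per kb of annotated exon on a log axis for the 29 imprinted genes with values, ordered by the control library, with open circles for the control library and filled circles for the BPA library. Mcts2 stands highest, at 23.1 CPM per kb in the control and 27.8 CPM per kb with BPA, and Airn, Zim1 and Usp29 lowest. The maternally expressed Copg2, H13, Cdkn1c, Dcn, Ube3a, Grb10 and Igf2r stand above all paternally expressed genes except Mcts2 and Peg10. The maternally expressed H19, Phlda2, Meg3 and Zim1 stand lower, among paternally expressed genes. The exon length joins all annotated transcripts of a gene, and the order depends on it.

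Mcts2 lies in an intron of H13 on chromosome 2, from 152687148 to 152687946 in RefSeq (GRCm38), on the same strand and with no exon base shared. It descends from Mcts1 on the X chromosome, which the male germ line silences at meiosis. Mcts1 stood at 1.94 CPM with BPA and 1.27 CPM in the control, or 1.23 and 0.807 CPM per kb. Per length, Mcts2 was thus 22.5 times above Mcts1 with BPA and 28.6 times in the control. Of the 50-base words of Mcts2, 0.695% occur in transcripts of other loci and none in Mcts1. Reads from unspliced H13 RNA over that intron cannot be told apart from Mcts2 reads. Zrsr1, also copied from an X-linked gene, stood at 1.75 and 1.35 CPM per kb against 1.26 and 1.63 CPM per kb for Zrsr2. Nap1l5 stood at 0.0956 and 0.104 CPM per kb against 20.6 and 22.1 CPM per kb for its autosomal relative Nap1l1, of whose 50-base words 21.2% occur at other loci. Its X-linked relatives were also low, Nap1l2 at 0.188 and 0.0776 CPM per kb and Nap1l3 at 0.0777 and 0.0590 CPM per kb.

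Imprinted genes outside the 32 that were at the floor also lay within 2-fold. Of 46 further genes known from imprinted regions, 31 were at the floor, 0 were higher, 0 lower and all 31 within 2-fold, with a median log2 ratio of 0.02. Over all genes at the floor, 1.32% were higher and 1.95% lower, so that 0 of 31 is close to the background. The largest in size were Zfp64, a zinc finger gene, at 2.75 CPM with BPA and 1.91 CPM in the control, and Rasgrf1, a Ras exchange factor gene, at 9.65 and 13.7 CPM. Slc22a3, an organic cation transporter gene beside Igf2r, stood at 7.47 and 5.60 CPM. Under the floor, 2 genes had intervals away from 1: Gpr1, with 1 read with BPA and 11 in the control (ratio 0.0837, 0.00195 to 0.576), and Tnfrsf23, with 13 and 2 reads (5.99, 1.36 to 54.7). Of the genes that hold a reverse-copied or embedded member, Commd1, around Zrsr1, was near even at 56.5 and 56.9 CPM, a ratio of 0.993. Herc3, around Nap1l5, stood at 7.03 and 5.57 CPM, a ratio of 1.26, with a counting interval wholly above 1. Blcap, around Nnat, stood at 20.6 and 23.2 CPM, a ratio of 0.891, with a counting interval wholly below 1. Both Herc3 and Blcap lay within 2-fold.

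Among 22 factors that set or keep imprints, 20 were at the floor, 1 was higher and 0 lower, with a median log2 ratio of 0.04. The higher one was Ehmt2, a histone methyltransferase gene, at 67.5 CPM with BPA and 24.0 CPM in the control, a ratio of 2.82 (2.62 to 3.03). Of the factors that read imprinting control regions, Ctcf, the insulator protein gene, stood at 23.1 and 23.8 CPM, its testis paralog Ctcfl at 2.07 and 1.51 CPM, and Trim28, the corepressor that ZFP57 recruits, at 494 and 513 CPM. Zfp57 itself was under the floor, at 0.727 and 0.670 CPM. Tet1, Tet2 and Kdm1b, which remove or reshape methylation marks, had log2 ratios of -0.58, 0.52 and -0.46. In the insulin-like growth factor pathway, 14 of 15 genes were at the floor, 0 of them 2-fold apart, with a median log2 ratio of 0.01. The binding protein gene Igfbp5 was the largest in size, at 1.21 CPM with BPA and 2.18 CPM in the control.

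Some imprinted genes are known from connective tissue, fat and Leydig cells, and markers of these cells were read beside them. Of 15 fat markers, 13 were at the floor, 9 were lower and 0 higher in the BPA library, with a median log2 ratio of -1.91. Over all genes at the floor, 1.95% were lower. Cidec, Cfd, Plin4, Lep and Pck1 passed the floor through the control library alone, so they could not have counted as higher. Fabp4, a fat cell fatty acid carrier, stood at 2.07 CPM with BPA and 24.4 CPM in the control, and Car3, an abundant carbonic anhydrase of fat cells, at 2.40 and 19.8 CPM. The fat hormone gene Adipoq stood at 15.4 and 17.2 CPM, and Cidea, another of these markers, went the other way at 5.58 and 3.64 CPM. The summed fat markers were 321 CPM with BPA and 404 CPM in the control, mostly from Lipe (285 and 297 CPM). Of the 22 imprinted genes at the floor, 6 had a counting interval wholly below 1 and 9 wholly above. Among all genes at the floor these shares were 21.3% and 21.8%. The 6 were Meg3, H19, Plagl1, Ndn, Kcnq1ot1 and Copg2, and the part of fat in these values was not tested. Peritubular and stromal markers, 14 of 15 at the floor, summed to 299 and 282 CPM and all lay within 2-fold, with 10 of 14 above 0. Dcn, a stromal gene, had a ratio of 1.15 beside a ratio of 1.06 for their sum.

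Single markers of Sertoli and Leydig cells differed more than their sums. Sertoli markers, 18 of 18 at the floor, had 15 above 0, a median of 0.18 and 1 lower gene, the homeobox gene Rhox8, at 1.43 and 9.04 CPM. Shbg, the androgen-binding protein gene, stood at 9.19 and 5.57 CPM (ratio 1.65), Fshr, the follicle-stimulating hormone receptor gene, at 3.64 and 2.25 CPM (1.62), and the transcription factor gene Gata4 at 28.8 and 21.4 CPM (1.35). The 11 Leydig markers, all within 2-fold, reached a sum of 1046 CPM with BPA and 986 CPM without, with 9 above 0. Hsd3b6, a steroid dehydrogenase gene of adult Leydig cells, stood at 41.4 and 23.6 CPM, a ratio of 1.75 (1.62 to 1.89), and Star, which carries cholesterol into mitochondria, at 95.9 and 70.9 CPM, a ratio of 1.35 (1.29 to 1.42). Both lie above the central 95% of genes with a mean from 10 to 100 CPM, and Sult1e1, an estrogen sulfotransferase gene, at 17.3 and 22.9 CPM, lies below it. Hsd3b1, another steroid dehydrogenase gene, was lower, at 101 and 129 CPM, a ratio of 0.783 (0.752 to 0.814). That is below the central 95% of genes with a mean above 100 CPM. Endothelial (8 genes at the floor), macrophage (7) and red blood cell (3) markers all lay within 2-fold, with medians of -0.05, 0.01 and -0.04, and so did the 10 spermatogonial genes (median 0.10), the 10 spermatocyte genes (0.04) and the 10 spermatid genes (0.02). Of 10 epididymal markers, 1 was at the floor, Defb21 at 1.32 and 1.79 CPM, 3 had few reads, Lcn9 and Rnase10 were listed at 0 in both libraries, and Lcn5, Lcn8, Spink13 and Adam28 had no value. The part of cell makeup in the small ratios of the imprinted genes was not tested.

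Exon overlap with another gene can affect some member values, in a direction that was not tested. No strand-marking step is described, and overlap on the same strand, as for Igf2 and Snrpn, would remain with such a step. Exons of 16 of the 32 genes share bases with another annotated gene, and for 8 the share is above 10%. It was 64.5% for Igf2, mostly with the protein-coding gene model Gm49394 on the same strand, 30.7% for Cdkn1c, 27.3% for Ube3a, 23.1% for Mest, 21.97% for Gnas, 17.8% for Copg2 and 14.8% for Usp29. For Meg3 the share was 8.29%, and 4.04% of its 50-base words occur at other loci, below the highest such share of 4.84%, that of Snrpn.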

How the data were processed

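Poly(A) RNA from mouse testis was sequenced in 2 libraries, 1 control and 1 BPA. Per the submitters' processing notes, HISAT2 2.0.4, HTSeq 0.6.1 and build mm10 were used; of annotation and strand setting nothing is given in the sources used here. The 2 deposited columns of values bear a read count heading, yet hold CPM, whole multiples of 1 step per library, which was taken as 1 read. The authors wrote CPM under 1 as 0. Such values were filled from the deposited log2 fold change, or, where both were under 1, as the whole reads that give both the deposited log2 fold change and the deposited p-value. The authors' p-value equalled that of an MA-plot method with CPM taken as counts, within 2.67e-05 in 15523 genes under 100 CPM. All 9897 such genes were resolved. On 4289 genes of known reads from 1 to 4 CPM the search was unique for 4286 and right for 4286. A further 4105 rows with a 0 and no fold change stayed as listed. Log2 ratios hold a pseudocount of 0.1 CPM, with a floor of 1 CPM in the higher library. No count model was fitted, because each group has 1 library, and intervals cover counting error only. The size rule was checked on Poisson reads of known folds. Symbols came from RefSeq (GRCm38, the build mm10 names) for 40269 of 44002 rows, exons and 50-base words from GENCODE M21. All 32 members are named; of each further list, up to 4 genes by size of the log2 ratio; other genes (such as Ctcf, Trim28, Zfp57, Blcap, Adipoq, Lipe, Gpr1 and Tnfrsf23) were chosen after their values were seen. The members and lists were chosen with earlier results of these data known. Alternatives covered the pseudocount, floor, scaling, fold, filling, interval bound, a read test and the class of the expressed copy. Python 3.11.15 and scipy 1.17.1 were used.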

Additional observations from a re-analysis of the deposited data

How the results depend on the processing

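Here counts are given as imprinted genes lower, all genes higher and all genes lower, which were 1, 256 and 379. They became 0, 82 and 123 with 1 CPM added, 0, 80 and 103 with a floor of 4 CPM, 2, 828 and 1042 at 1.5-fold, and 0, 100 and 162 when the nearer interval bound had to reach 2-fold. Without a floor, by the deposited fold change, they were 3, 1938 and 2582, the 2 added imprinted genes being Phlda2 and Slc38a4. A floor of 0.2 CPM, chosen after seeing the data, gave 2, 777 and 1096. Listed zeros taken as 0 left 1 imprinted gene lower and gave 686 and 937 over all genes. No imprinted gene was higher under these settings. An exact binomial test of reads with Benjamini-Hochberg adjustment, which compares the libraries and not the conditions, called 7 imprinted genes higher and 6 lower, and 3362 and 3380 of all genes. Scaling by the median ratio gave 1, 254 and 380 and by the trimmed mean 1, 254 and 379. The paternally expressed median was 0.12 with a floor of 4 CPM, -0.11 without a floor and -0.12 with a floor of 0.2 CPM. The maternally expressed median was -0.61 without Dcn, H13, Copg2, Ube3a, Igf2r and Grb10, which leaves H19, Meg3 and Cdkn1c. Of 149 single-gene values recomputed over 22 genes, 147 stayed inside the gene's counting interval, 2 did not and 0 of the called ones changed sign; the 2 are Meg3 with 1 CPM added (-0.92) and with its listed zero as 0 (-4.85). Beyond what each setting changes by construction, the cause was not tested. Depth limits genes near 1 CPM: 49 and 71 reads left H19 an interval of 1.08-fold to 2.31-fold. No paired analysis was possible because each group has 1 library.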

Other observations

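The deposited p-values of the authors' table follow a formula in which CPM stand in for reads. For Meg3, with 45 reads with BPA and 116 in the control, the authors' deposited table gives a p-value of 0.350 and a q-value of 0.99996. The same q-value stands beside all 29 imprinted genes with a fold change in that table. Because the formula depends on the level as well as on the ratio, it also returned the reads of imprinted genes that the table lists at 0 in both libraries, such as 20 and 37 reads for Slc38a4 and 8 and 6 reads for Dlk1 in the BPA and control libraries.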
